A study of Rattus norvegicus with 12 samples.

Results

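The water-treated hearts of the series were compared between its 2 collection days: 3 libraries of day 28 (replicates 2, 3 and 4) against 3 libraries of day 14 (replicates 2, 3 and 7), 6 of the 12 libraries in all. The libraries were chosen by treatment and day alone, and the counts of both days were joined by gene. All rats were male, wild-type Sprague-Dawley (SD) rats, an outbred stock, of 180-200 g at the start. They were given deionized water daily, for 14 days in one group and 28 days in the other, as the control arm of a study of sorafenib, a kinase inhibitor used against cancer that the other 6 libraries received at 50 mg/kg. Each day has its own count table. Time of treatment, age, table and sequencing run therefore cannot be told apart in any result below. The hour of collection is not among the labels, and neither is a statement that each library is a rat of its own. The p-values below thus cover the spread between libraries, which may be technical.

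The heart keeps a circadian clock in its own cells. CLOCK or NPAS2 pairs with BMAL1 (gene symbol Arntl in the count tables) and activates genes through a short DNA element, the E-box, while PER and CRY proteins and the REV-ERB receptors (Nr1d1, Nr1d2) feed back as repressors. Levels of Arntl and of output genes such as Dbp run in opposite phase over the day. Immediate early genes are a second fast layer: transcription factors and signalling regulators that are transcribed within minutes of a stimulus. The contractile genes change more slowly, and the rodent ventricle shifts between its fast myosin heavy chain (Myh6) and the slow one (Myh7) with growth, thyroid state and load.

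Total counts were 18186669 to 18534816 on day 14 and 20754272 to 26403196 on day 28, and 21914 to 22748 genes had a count in each library. The defining cardiomyocyte genes were abundant in all 6, with Myh6 between 16962 and 34639 CPM (reads scaled to a common library total, TMM-normalized). Short genes took more of the counts on day 28: genes under 1000 exonic bases held 4.31% to 4.54% on day 14 and 5.57% to 6.59% on day 28, and genes over 5000 bases held 51.3% to 52.3% and 47.1% to 49.7%. Long noncoding RNAs took 1.04% to 1.12% on day 14, against 1.03%, 0.825% and 0.483% in replicates 2, 3 and 4 of day 28. Day 28 replicate 4 stood apart on the first principal component (48.3% of the variance), at 74.2 against 9.97 and 27.7 in the other day 28 libraries and -42.9 to -30.8 on day 14. The ribosomal RNA precursor Rn45s took 0.0977% to 0.287% on day 14 and 0.361% to 0.537% on day 28, in RNA from which ribosomal RNA had been removed.

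Many genes differed between the days. Of 17210 genes tested, 1191 were higher on day 28 (6.92%) and 452 were lower (2.63%) at an adjusted p below 0.05 in edgeR's quasi-likelihood test with Benjamini-Hochberg adjustment, 9.55% together. Of these, 447 of the higher and 177 of the lower genes changed more than 2-fold. In all 1191 higher and all 452 lower genes the libraries of the 2 days lay fully apart, so this adds nothing to a call. Over all 17210 genes tested, the day 28 libraries lay all above those of day 14 in 18% and all below in 17.4%. The smallest adjusted p was 0.00229, and an unadjusted p below 0.05 was found for 4766 genes against a chance expectation of 860. The count fell to 573 without day 14 replicate 2, to 385 without day 14 replicate 3 and to 651 without day 28 replicate 3. Without day 28 replicate 4 it was 1703, of which 1317 were among the 1643.

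Clock genes differed between the days in both directions. Of 13 clock repressors and output genes tested, 7 were lower on day 28 (53.85%, against 2.63% of all genes) and 0 were higher. Their median log2 fold change was -1.08, against -0.05 over all genes. Of 5 genes on the list of clock activators, which also holds the repressor Nfil3, 3 were higher (60%, against 6.92% of all genes) and 0 were lower. The 3 were Arntl, Npas2 and Nfil3, and the list median was 1.38. Several members of these lists share a promoter element. The E-box CACGTG was found in the 250 bases before the start of 4 of 11 repressor and output genes with a RefSeq promoter (36.4%), against 5.795% of 27457 promoters of the same length and 7.56% of those of the genes tested. Of these 4, Ciart, Tef and Bhlhe41 were lower on day 28 and Bhlhe40 did not pass the test. Among all called genes, the E-box was in 8.25% of promoters of those lower and in 8.15% of those higher. The share in the list thus describes the clock genes chosen for it, not the difference between the days. The letters CCAAT were in 8 of the 11 promoters (72.7%), against 34.5% of those of the genes tested. The core of the REV-ERB and ROR element, TAGGTCA, was found in 1 of 5 promoters of the activator list, that of Bmal1, against 2.26% of all promoters. Both strands were searched, and a match is a description of these letters only. The promoters of these 4 genes are shown because they carry the elements, 5′ to 3′ on the gene's strand, from RefSeq on GRCr8 (chr2:186112247-186112496, minus strand, for Ciart; chr7:115206577-115206826, plus, for Tef; chr4:180569356-180569605, minus, for Bhlhe41; chr1:176766078-176766327, plus, for Bmal1). Capitals mark the E-box in the first 3 and the REV-ERB and ROR core in the last.
Ciart: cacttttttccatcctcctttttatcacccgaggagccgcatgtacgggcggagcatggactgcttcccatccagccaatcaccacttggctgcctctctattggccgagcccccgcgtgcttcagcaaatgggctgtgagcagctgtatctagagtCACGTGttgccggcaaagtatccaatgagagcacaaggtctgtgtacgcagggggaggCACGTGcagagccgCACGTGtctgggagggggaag
Tef: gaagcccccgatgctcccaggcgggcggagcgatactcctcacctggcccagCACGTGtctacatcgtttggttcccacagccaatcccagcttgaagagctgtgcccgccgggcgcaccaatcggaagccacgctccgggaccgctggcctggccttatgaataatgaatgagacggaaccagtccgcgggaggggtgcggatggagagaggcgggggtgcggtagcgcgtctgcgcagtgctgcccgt
Bhlhe41: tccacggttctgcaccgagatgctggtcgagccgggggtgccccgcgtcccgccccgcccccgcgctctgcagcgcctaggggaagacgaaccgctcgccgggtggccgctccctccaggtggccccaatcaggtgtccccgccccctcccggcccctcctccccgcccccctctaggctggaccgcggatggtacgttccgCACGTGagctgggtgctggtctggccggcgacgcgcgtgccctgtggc
Bmal1: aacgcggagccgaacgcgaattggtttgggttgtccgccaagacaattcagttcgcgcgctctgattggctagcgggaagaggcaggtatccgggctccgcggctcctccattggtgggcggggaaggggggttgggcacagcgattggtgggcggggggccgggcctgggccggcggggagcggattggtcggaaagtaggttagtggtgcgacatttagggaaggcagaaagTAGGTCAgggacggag
Ciart holds 3 E-boxes, which begin 93, 35 and 21 bases before its start. The single E-boxes of Bhlhe41 and Tef begin 48 and 198 bases before theirs, and the core in Bmal1 begins 16 bases before its start.

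On the output side, Dbp (chr1:96175796-96180745 in mRatBN7.2), a PAR bZIP transcription factor that the clock drives directly, was at 105, 83.0 and 44.9 CPM in day 14 replicates 2, 3 and 7 and at 20.4, 10.9 and 12.9 CPM in day 28 replicates 2, 3 and 4. All day 28 libraries lay below all of day 14, with a log2 fold change of -2.40 ± 0.35 (SE; adjusted p = 0.00795, edgeR). Tef, of the same factor family, was at 208, 165 and 160 CPM and then at 87.3, 79.6 and 85.4 CPM (log2 fold change -1.08 ± 0.13, adjusted p = 0.00371 in edgeR). The third member of that family, Hlf, also fell (-1.58 ± 0.32). Among the repressors, Per3 fell from 118, 118 and 85.4 to 37.8, 21.1 and 11.5 CPM (-2.19 ± 0.39, adjusted p = 0.0172 in edgeR), with the widest relative spread on day 28 among these genes. Nr1d2, which encodes REV-ERB beta, fell from 238, 212 and 182 to 96.3, 92.9 and 89.8 CPM, a tight group on day 28 (-1.18 ± 0.13). Bhlhe41, a repressor that competes for E-boxes, fell from 52.7, 37.4 and 22.5 to 13.4, 9.08 and 13.8 CPM (-1.64 ± 0.30). Ciart, a repressor of the CLOCK and BMAL1 pair, fell from 13.5, 6.12 and 6.27 to 3.75, 2.12 and 1.52 CPM (-1.81 ± 0.43).

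The other repressors gave no such difference. Per1, Per2, Cry1, Cry2, Nr1d1 and Bhlhe40 did not pass the test, with log2 fold changes between -0.87 (Per2, adjusted p = 0.0577 in edgeR) and 0.41 (Per1). Per1 was at 224, 161 and 199 CPM on day 14 and 322, 270 and 184 CPM on day 28, so the groups overlapped. Nr1d1, the paralog of Nr1d2, was at 51.2, 65.02 and 41.1 against 61.7, 60.9 and 60.8 CPM.

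On the activator side, Arntl (chr1:167331756-167430235 in mRatBN7.2) was at 6.43, 9.02 and 19.5 CPM on day 14 and at 36.9, 52.4 and 62.8 CPM on day 28. The groups did not overlap and the log2 fold change was 2.12 ± 0.40 (adjusted p = 0.0206, edgeR). Npas2, which can take the place of CLOCK, rose from 6.43, 8.87 and 12.4 to 19.5, 24.8 and 34.1 CPM (1.5 ± 0.27). Nfil3, a repressor of the genes that DBP activates, which the list holds although it is no activator, rose from 7.59, 8.57 and 10.4 to 16.8, 26.0 and 26.1 CPM (1.38 ± 0.21). Clock and Rora did not pass, at 0.17 and -0.09.

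Replicate 7 of day 14 was the day 14 library nearest to day 28 for Dbp, Per3, Bhlhe41, Arntl, Npas2 and Nfil3. Over the 13 repressors and output genes, the mean log2 level relative to the day 14 mean was 0.30, -0.05 and -0.25 in day 14 replicates 2, 3 and 7 and -0.69, -0.93 and -1.07 in day 28 replicates 2, 3 and 4. With 1 library left out, the number of repressors called lower ran from 3 (without day 14 replicate 3 or day 28 replicate 3) to 8, was 4 without day 14 replicate 2, and was 5 without day 28 replicate 4, where 1 further member was called higher. The number of activators called higher was 1 without day 14 replicate 3 and otherwise 2 or 3. Arntl and Ciart lost their call without day 14 replicate 3, without day 28 replicate 3 and without day 28 replicate 4 (highest adjusted p 0.0866 and 0.11 in edgeR), Per3 and Ciart without day 14 replicate 2, and Per3 and Bhlhe41 without day 14 replicate 3 or day 28 replicate 3. Dbp lost its call only without day 28 replicate 4 (0.0527).

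**Figure D1:**
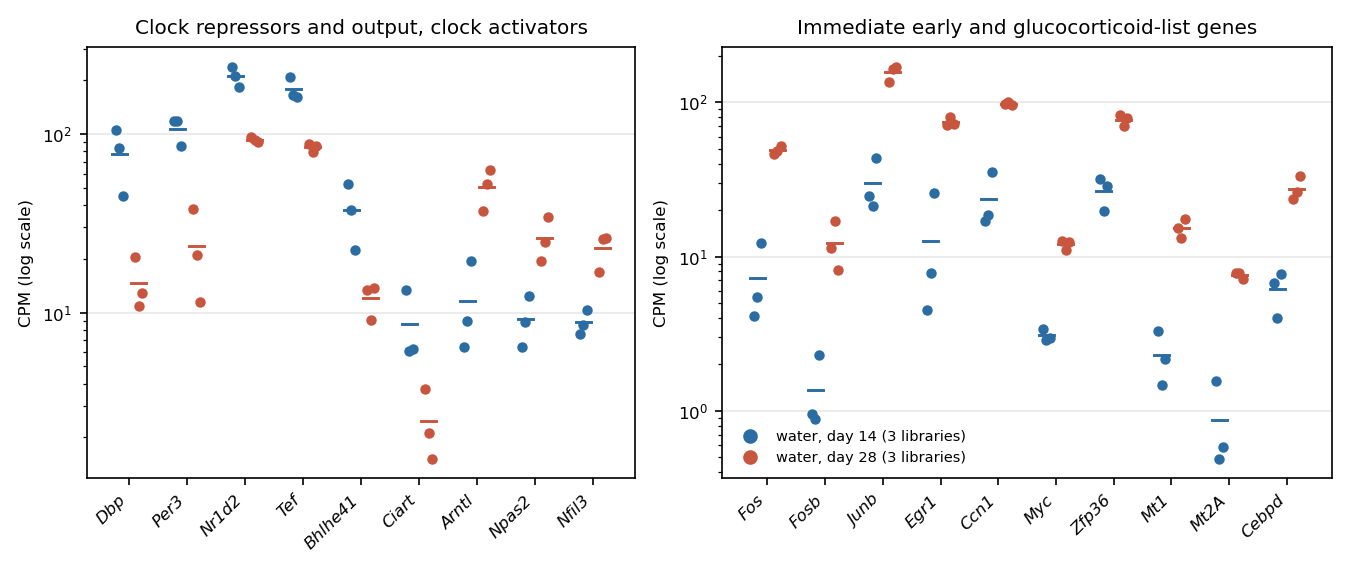
Levels of clock genes (left) and of immediate early and glucocorticoid-list genes (right) in CPM on a log axis, with 1 point per water library and a bar at the mean of the 3 libraries of a day. Dbp, Per3, Nr1d2, Tef, Bhlhe41 and Ciart lie lower on day 28 and all other genes plotted lie higher, with no overlap between the days. All genes plotted were called, and no called gene overlapped between the days.

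Immediate early genes had the largest share of members higher on day 28 among the 49 lists. Of 27 tested, 21 were higher and 0 were lower (77.8%, against 6.92% of all genes), with a median log2 fold change of 1.42. Among the AP-1 factors, Fos (chr6:105121170-105124036 in mRatBN7.2) was at 4.12, 5.49 and 12.2 CPM on day 14 and at 45.9, 48.6 and 51.9 CPM on day 28, a log2 fold change of 2.75 ± 0.36 (adjusted p = 0.00528, edgeR). Its paralog Fosb, whose exons overlap those of another gene, rose from 0.955, 0.882 and 2.28 to 11.3, 17.03 and 8.16 CPM (3.15 ± 0.42). The partner gene Junb rose from 24.6, 21.1 and 43.6 to 135, 164 and 170 CPM (2.39 ± 0.26). Days did not overlap for any of the 3 genes, as for every gene called, and day 14 replicate 7 was again the day 14 library nearest to day 28.

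The zinc finger factor Egr1 was at 4.52, 7.84 and 25.8 CPM on day 14 and 70.9, 79.8 and 72.2 CPM on day 28 (2.55 ± 0.57, adjusted p = 0.0362 in edgeR). Its call held in 7 of 14 alternatives and was lost on leaving out any library except day 14 replicate 7 (adjusted p up to 0.158). Myc, a driver of growth and ribosome production, rose from 3.37, 2.89 and 2.97 to 12.7, 11.1 and 12.4 CPM (1.97 ± 0.19). Ccn1, a secreted matrix-associated regulator, rose from 16.9, 18.7 and 35.1 to 97.2, 99.9 and 96.6 CPM (2.05 ± 0.25). Zfp36, which speeds the decay of many of these mRNAs, rose from 31.7, 19.8 and 28.5 to 82.3, 70.3 and 78.6 CPM (1.53 ± 0.18). Fos, Fosb, Junb, Myc, Ccn1 and Zfp36 passed in 14 of 14 alternatives. The members that did not pass were Fosl1, Klf6, Ier3, Ier5, Fosl2 and Egr2, of which Fosl1 (-0.69) and Klf6 (-0.38) had negative values. The count of members called higher ran from 14, without day 14 replicate 2 or replicate 3, to 23, and was 19 without day 28 replicate 4.

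The cAMP response element TGACGTCA was found in the promoters of 5 of 20 immediate early genes (25.0%). It was in 1.697% of all promoters, 2.61% of those of the genes tested and 4.39% of those of all genes called higher. These 5 genes, Jund, Ier2, Btg2, Dusp1 and Maff, were all higher on day 28, as were 77.8% of all 27 members tested. Ier2 and Btg2 are shown as examples from RefSeq on GRCr8 (chr19:40399123-40399372, plus strand, and chr13:48087691-48087940, minus strand), with the element in capitals.
Ier2: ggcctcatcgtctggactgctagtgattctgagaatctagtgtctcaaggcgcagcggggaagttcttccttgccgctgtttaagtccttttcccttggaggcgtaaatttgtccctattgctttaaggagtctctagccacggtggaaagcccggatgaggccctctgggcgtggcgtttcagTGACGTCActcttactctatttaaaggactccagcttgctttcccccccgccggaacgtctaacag
Btg2: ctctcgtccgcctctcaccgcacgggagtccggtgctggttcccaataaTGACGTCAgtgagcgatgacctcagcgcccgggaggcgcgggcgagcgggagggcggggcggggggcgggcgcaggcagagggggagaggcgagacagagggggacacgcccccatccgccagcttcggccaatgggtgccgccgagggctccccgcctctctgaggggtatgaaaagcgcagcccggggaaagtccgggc
The element begins 66 bases before the start of Ier2 and 201 bases before that of Btg2.

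Genes that glucocorticoids are known to induce lay higher as well. All 18 tested had a positive log2 fold change (median 1.28), and 8 passed (44.4%, against 6.92% of all genes higher). The metallothioneins, which bind zinc and copper, moved most: Mt1 rose from 3.27, 1.47 and 2.18 to 15.2, 13.3 and 17.6 CPM (2.74 ± 0.29, adjusted p = 0.00271 in edgeR), and Mt2A from 1.56, 0.490 and 0.584 to 7.87, 7.86 and 7.13 CPM (3.11 ± 0.42). Cebpd, a transcription factor of the acute response, rose from 6.78, 4.02 and 7.75 to 23.7, 26.0 and 33.0 CPM (2.16 ± 0.25), and Nfkbia, the inhibitor of NF-kappa-B, from 82.7, 55.0 and 79.8 to 186, 220 and 170 CPM (1.41 ± 0.18). Fkbp5, a co-chaperone of the receptor, was at 60.5, 21.1 and 61.5 CPM against 169, 174 and 120 CPM (1.69 ± 0.38, adjusted p = 0.0366 in edgeR), and held its call in 8 of 14 alternatives. Klf9, Tsc22d3, Sgk1 and Per1, members of the same list, did not pass and had values between 0.23 and 0.66, and Pdk4, which limits glucose oxidation, did not pass at 1.78 (adjusted p = 0.0906 in edgeR). Day 14 replicate 3 was the low library of this list, at -0.61 relative to the day 14 mean where replicates 2 and 7 were at 0.36 and 0.24; the day 28 libraries were at 1.26 to 1.42. Leaving out 1 library left 5 to 7 members called, with 5 without day 14 replicate 2 or day 28 replicate 3.

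**Figure D2:**
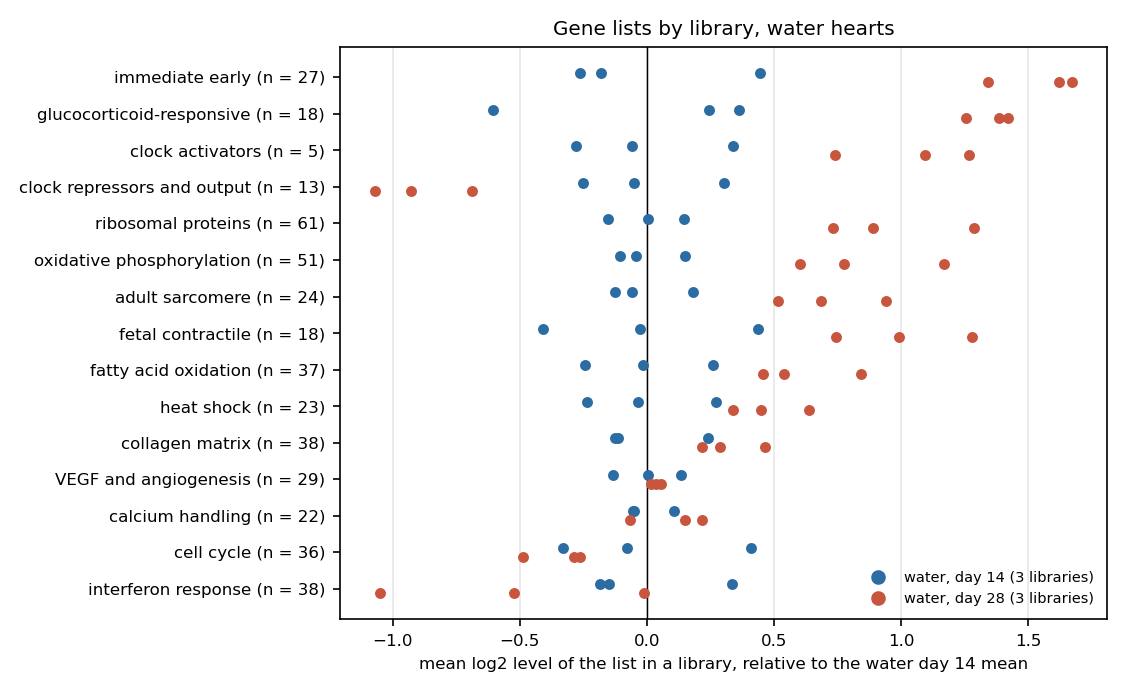
Mean log2 level of 15 gene lists in each water library, relative to the mean of the 3 day 14 libraries, with the number of genes tested per list in brackets. The days do not overlap for the first 10 lists, from immediate early to heat shock, and they overlap in the 5 lists below.

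Part of the contractile genes were higher on day 28. Of 24 adult sarcomere genes, 11 were higher (45.8%, against 6.92% of all genes), 0 were lower and 13 did not pass (median log2 fold change 0.64). Of 18 genes of the fetal or stressed myocardium, 8 were higher (44.4%), 0 were lower and 10 did not pass (median 0.72). Myh7, the slow beta myosin heavy chain (chr15:28446550-28469888 in mRatBN7.2), was at 1676, 1402 and 1236 CPM on day 14 and at 4596, 4366 and 6484 CPM on day 28. Its log2 fold change was 1.84 ± 0.21 (adjusted p = 0.00289, edgeR), and it passed in 14 of 14 alternatives. Myh6, the fast alpha chain that lies next to it, did not pass, at 16962, 21749 and 24201 CPM against 21691, 26296 and 34639 CPM (0.39 ± 0.24, adjusted p = 0.311 in edgeR). Myh7 was the lower of the pair per length on both days, at 237 and 848 RPKM against 3466 and 4552 RPKM for Myh6.

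As a share of the counts of both chains, Myh7 took 8.99%, 6.06% and 4.86% in day 14 replicates 2, 3 and 7 and 17.5%, 14.2% and 15.8% in day 28 replicates 2, 3 and 4. The mean was 6.63% ± 2.13 (SD, n = 3) and then 15.8% ± 1.62 (SD, n = 3). The groups did not overlap, and the difference of 9.195 percentage points had an exact two-sided permutation p of 0.1, the smallest that 3 against 3 libraries allow. In sorafenib hearts the share was 15.2% ± 4.33 on day 14 and 20.4% ± 4.03 on day 28 (SD, n = 3 each), with overlapping days. Exons of both genes overlap those of unnamed loci, and the chains are close in sequence, so reads that both could have produced may be divided between them or left out.

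Among thin filament genes, Tnni3, cardiac troponin I, rose from 855, 988 and 1240 to 2314, 2606 and 3502 CPM (1.45 ± 0.21, adjusted p = 0.00575 in edgeR). Cardiac troponin T, Tnnt2, rose from 1732, 1960 and 2012 to 3959, 4186 and 5126 CPM (1.22 ± 0.17), and the tropomyosin gene Tpm1 from 1859, 2248 and 2399 to 3729, 4199 and 5839 CPM (1.08 ± 0.21). At the Z-disc, Myot (myotilin) rose at a low level, from 1.66, 1.03 and 1.49 to 6.58, 7.58 and 5.56 CPM (2.24 ± 0.30), and Ankrd1, a stretch-responsive regulator, from 1054, 804 and 1201 to 2599, 2631 and 3140 CPM (1.45 ± 0.19). Xirp1, a protein of the intercalated disc, had a log2 fold change of 0.93 ± 0.17. Abra, an actin-binding protein of striated muscle, was among the 5 genes of largest rise by the naming rule, from 4.72, 4.75 and 8.23 to 64.9, 47.9 and 108 CPM (3.64 ± 0.36). The giant scaffold Ttn did not pass (0.23 ± 0.23), nor did the splicing factor Rbm20 (-0.11 ± 0.17) or Camk2d (-0.24 ± 0.18). Of 22 genes on the list of Rbm20 and the targets it is known to splice, 5 were higher (22.7%, against 6.92% of all genes) and 0 were lower (median 0.25). The count was 1 without day 14 replicate 2 or replicate 3 and 2 without day 28 replicate 3. Gene counts do not show splicing.

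Of 22 calcium handling genes, 1 was higher (4.545%, against 6.92% of all genes) and 0 were lower. It was Hrc, a calcium-binding protein of the sarcoplasmic reticulum, at 127, 148 and 193 against 367, 399 and 554 CPM (1.49 ± 0.21, adjusted p = 0.00467 in edgeR). The calcium pump gene Atp2a2 was at 0.23 ± 0.20 and the release channel gene Ryr2 at 0.34 ± 0.16, and neither passed. Of 25 potassium and sodium channel genes, 3 were higher (12%), among them Hcn2 (0.74) and Kcnk3 (0.78), and 1 was lower, Kcnj2, of the inward rectifier current, from 106, 102 and 76.2 to 37.3, 39.8 and 62.3 CPM (-1.03 ± 0.21; called in 10 of 14 alternatives). With 1 library left out, the members called higher ran from 3 to 14 for the adult sarcomere and from 2 to 10 for the fetal list. Both minima came without day 14 replicate 3; without day 14 replicate 2 the counts were 5 and 2, and without day 28 replicate 3 they were 6 and 4.

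The natriuretic peptide genes varied among the day 28 libraries. Nppa was at 10.8, 19.9 and 12.4 CPM on day 14 and at 156, 239 and 17.9 CPM in day 28 replicates 2, 3 and 4. The value of replicate 4 lay within the day 14 range, and the log2 fold change of 3.26 ± 0.91 did not pass (adjusted p = 0.0784, edgeR); it passed in 4 of 14 alternatives, among them that without replicate 4 (3.79), DESeq2 and non-robust dispersion. Nppb was at 53.1, 50.6 and 56.4 CPM against 91.9, 92.7 and 42.4 CPM and did not pass either (0.50 ± 0.26); it passed in 2 of 14 alternatives, 1 of them that without replicate 4 (0.80). Both genes are also expressed in the atrium, and atrial markers varied between single libraries: the atrial light chain Myl7 was at 0.251, 0.392 and 82.5 CPM on day 14 and 14.6, 33.2 and 2.91 CPM on day 28, and Myl4 at 2.06, 2.11 and 1.12 against 2.88, 17.2 and 2.29 CPM. Of 10 atrial markers tested, 0 passed in either direction. The part of atrial tissue in the Nppa values was not tested.

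**Figure D3:**
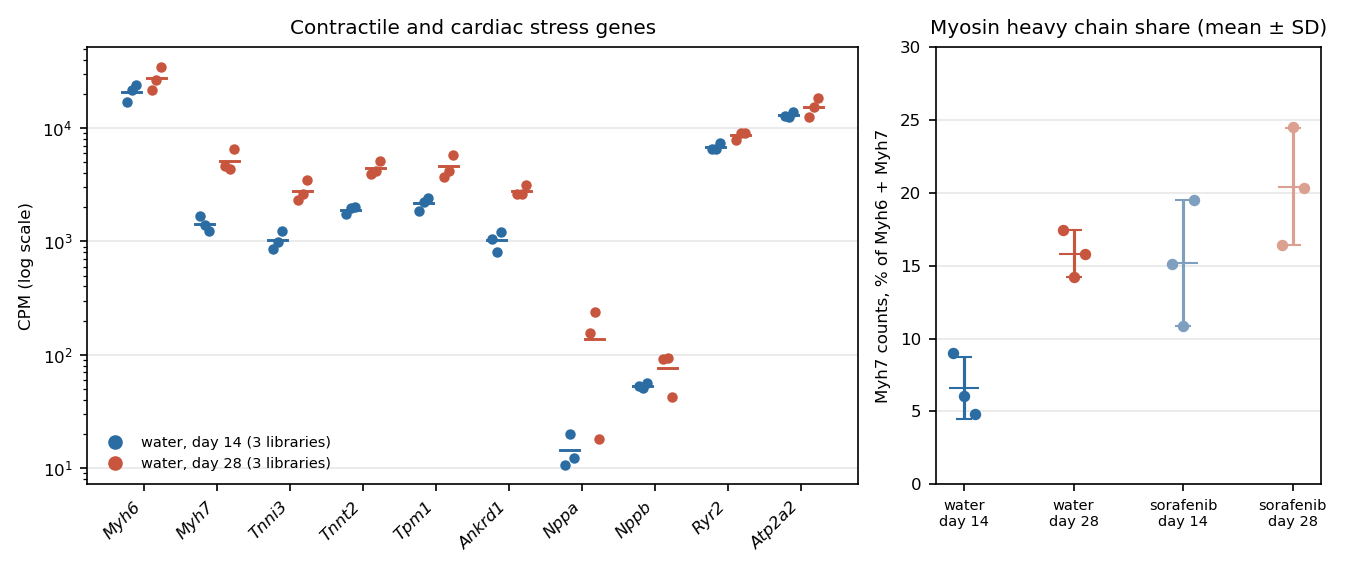
Left, levels of contractile and cardiac stress genes in CPM on a log axis, with 1 point per water library and a bar at the mean of a day. Right, counts of Myh7 as a percentage of the counts of Myh6 and Myh7 in all 4 groups, with the mean and SD of 3 libraries; water day 14 lies lowest, at 4.86% to 8.99%, and water day 28 at 14.2% to 17.5%.

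Nuclear genes of oxidative phosphorylation and ribosomal protein genes were higher in large numbers, and both lists consist of short genes. Of 51 genes of oxidative phosphorylation, 27 were higher (52.9%, against 6.92% of all genes) and 0 were lower, with a median log2 fold change of 0.79. Of 61 ribosomal protein genes, 41 were higher (67.2%) and 0 were lower, with a median of 0.82. The median exonic length was 971 bases in the first list and 696 bases in the second, against 1819 bases for all genes called higher, 5805 for those called lower and 3367 for the rest. Over all genes the median log2 fold change was 0.23 for lengths of 500 to 1000 bases, where 19.5% of genes were higher, and -0.20 above 8000 bases, where 6.997% were lower. The shortest class, up to 500 bases, had the lowest median, -0.31, with 12.4% of genes higher; Atp5me, Rps28, Rpl35 and Rpl38, described next, belong to it. After each library's trend of level with length had been removed, 1012 genes were higher (5.88%) and 317 were lower (1.84%). The lists then had 23 and 30 members higher and 0 lower, with medians of 0.66 and 0.76. The trend was fitted over all genes tested, among them 110 snoRNAs of median length 131 bases and median log2 fold change -0.44. Its removal raised the values of some of the shortest genes, such as Ndufa3, from 1.68 to 1.74. The part of length in the rise of these lists was not tested.

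Among respiratory chain subunits, Atp5me, of the ATP synthase, rose most, from 8.44, 9.60 and 14.8 to 87.0, 90.2 and 143 CPM (3.28 ± 0.27, adjusted p = 0.00229 in edgeR; 3.51 with the length trend removed). The complex I genes Ndufa3, Ndufa6 and Ndufb10 had log2 fold changes of 1.68, 1.74 and 1.81. Ndufb10, for example, was at 20.1, 20.9 and 25.8 CPM and then at 68.0, 70.3 and 95.1 CPM, with day 28 replicate 4 the highest library. Chchd10, a mitochondrial intermembrane space protein whose exons overlap another locus, rose from 38.2, 36.4 and 51.0 to 268, 248 and 460 CPM (2.96 ± 0.26). In the same libraries the mitochondrial ribosomal RNA mt-Rnr2 rose from 223, 340 and 332 to 971, 1165 and 1500 CPM (2.02 ± 0.22). Ribosomal RNA had been removed before sequencing, so these counts are what was left of it. The part of this removal in the rise was not tested.

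Among ribosomal protein genes, Rps28 was at 7.99, 10.8 and 10.8 CPM on day 14 and 39.2, 40.1 and 59.9 CPM on day 28 (2.24 ± 0.21, adjusted p = 0.00229 in edgeR). Rpl35, Rpl38 and Rplp2 had log2 fold changes of 2.81, 2.69 and 2.14. All 61 log2 fold changes of the list were positive. Ribosomal protein genes have many near-identical pseudogene copies, one of which, Rpl37a-ps1, was itself among the largest rises (2.83 ± 0.25), so the counts of single genes of this family are uncertain. Leaving out 1 library left 20 to 44 ribosomal protein genes and 14 to 32 oxidative phosphorylation genes called higher. Both minima came without day 14 replicate 3; without day 14 replicate 2 the counts were 27 and 17, and without day 28 replicate 4 they were 37 and 27.

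**Figure D4:**
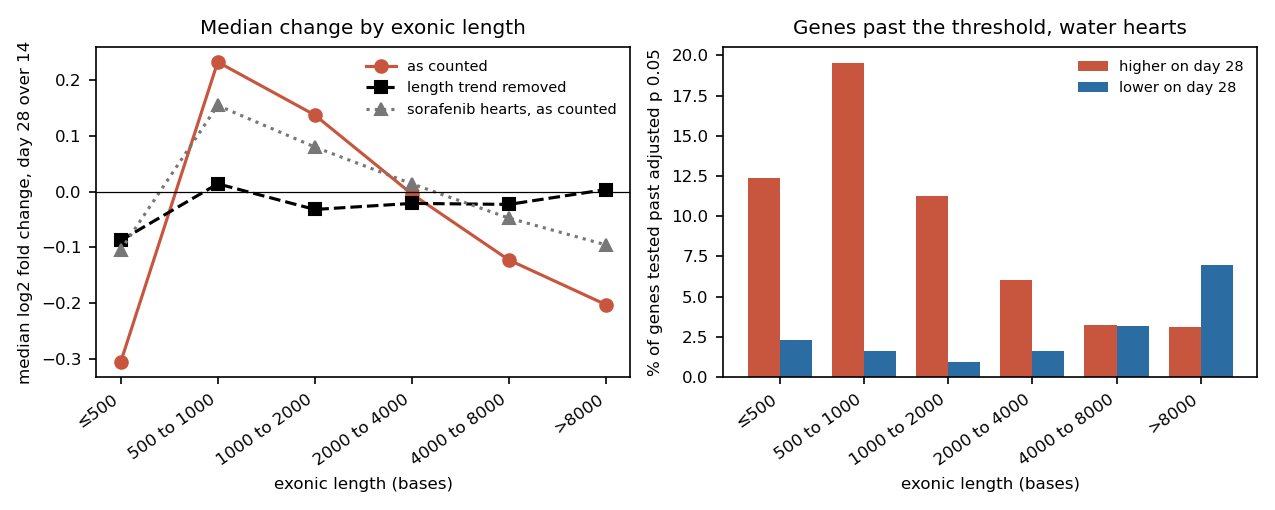
Left, median log2 fold change of day 28 over day 14 by class of exonic length, for water hearts as counted and with the length trend removed, and for sorafenib hearts as counted. Right, percentage of genes tested that passed the threshold in water hearts; genes of 500 to 1000 bases were most often higher (19.5%) and genes over 8000 bases most often lower (6.997%).

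Fuel genes moved less. Of 37 fatty acid oxidation genes, 8 were higher (21.6%, against 6.92% of all genes) and 0 were lower (median 0.49). Fabp4, a fatty acid carrier that endothelium and adipocytes express, rose from 127, 126 and 116 to 324, 301 and 288 CPM (1.31 ± 0.12, adjusted p = 0.00229 in edgeR), and its libraries lay close together on each day. The heart form Fabp3, whose exons overlap another gene, rose from 371, 342 and 431 to 957, 914 and 1366 CPM (1.5 ± 0.19). The white adipocyte marker Adipoq was at 0 to 0.0503 CPM on day 14 and 0 to 0.329 CPM on day 28, and the summed level of that marker list, which includes Fabp4, was 298 to 378 CPM and then 488 to 609 CPM. Pnpla2, the lipase that opens stored triglyceride, had a log2 fold change of 1.23 ± 0.21 and Ucp3, a mitochondrial carrier, 1.78 ± 0.30. Of 30 glucose and glycolysis genes, 4 were higher (13.3%), Pgam2, Ldhb, Aldoa and Gapdh, at 0.74 to 1.53, and 0 were called without day 14 replicate 3. Of 23 heat shock genes, 7 were higher (30.4%) and 0 were lower, led by the small heat shock proteins and their partner. Bag3 rose from 105, 99.9 and 142 to 293, 272 and 357 CPM (1.41 ± 0.17), Hspb6 by 1.38 and Hspb1 by 1.32, while Hspa8, Hsp90aa1 and Hspa1b did not pass. The count of heat shock genes called higher was 2 without day 14 replicate 3 and 4 without day 14 replicate 2. The heat shock element (GAA and TTC in alternation, 2 bases apart, 3 in all) was found in the promoters of 4 of 19 genes of this list (21.1%), against 0.597% of all promoters, and these 4, Hspa8, Hsph1, Hspd1 and Hspe1, did not pass.

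Some collagen matrix genes were higher on day 28. Of 38 matrix genes, 6 were higher (15.8%, against 6.92% of all genes) and 0 were lower (median 0.24). Thbs1, an activator of latent TGF-beta, was at 37.9, 42.4 and 46.8 CPM against 310, 398 and 106 CPM (2.68 ± 0.44, adjusted p = 0.0136 in edgeR), and Sparc, a collagen-binding protein, at 595, 780 and 679 against 1086, 1171 and 1206 CPM (0.75 ± 0.15). The fibrillar collagens Col1a1 (0.03 ± 0.21) and Col3a1 (0.00 ± 0.18) and the fibroblast product Postn (-0.51 ± 0.39) did not pass. Leaving out 1 library left 1 to 5 matrix genes, with 1 without day 14 replicate 2 or replicate 7 and 2 without day 14 replicate 3 or day 28 replicate 3. Of 17 matrix proteases and inhibitors, 4 were higher (23.5%): Adamts1, Adamts4, Adamts15 and Timp1, with 1 called without day 14 replicate 2 or day 28 replicate 3 and 2 without day 14 replicate 7. Growth factor genes Igf1 (0.23 ± 0.22) and Igf2 (0.10 ± 0.22) did not pass, while Irs2, an adaptor of insulin signalling, rose from 74.0, 55.6 and 86.5 to 263, 268 and 152 CPM (1.66 ± 0.24). Of 29 VEGF and angiogenesis genes, 2 were higher (6.897%, against 6.92% of all genes), Vegfb (1.46 ± 0.16) and Pgf (2.31 ± 0.43), and 4 were lower (13.8%, against 2.63%), among them Jag1 and Nrp2. None of the 4 lower calls (0) was left without day 14 replicate 2, without day 14 replicate 3, without day 28 replicate 3 or with the length trend removed.

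Interferon and cell cycle genes lay lower in most members, with few calls. Of 38 interferon response genes, 32 had a negative log2 fold change (median -0.52). Those called lower were 2 (5.26%, against 2.63% of all genes), Rsad2 and Ifi44l, at -1.01 and -0.88. Another 2 were higher (5.26%, against 6.92% of all genes), Bst2 and Oas1k, at 0.91 and 1.5. Day 14 replicate 2 was the high library of the list: its mean log2 level relative to the day 14 mean was 0.33, against -0.19 and -0.15 in replicates 3 and 7 and -1.05 to -0.01 on day 28. Without that library 0 members were called and the median was -0.31. Lower calls also numbered 0 without day 14 replicate 3, day 28 replicate 3 or day 28 replicate 4, and 10 without day 28 replicate 2. Of 36 cell cycle genes, 32 had a negative value (median -0.44) and 1 was lower (2.778%, against 2.63% of all genes), Tyms (-0.56 ± 0.13), whose exons overlap another gene and whose call was kept in 7 of 14 alternatives. Day 14 replicate 3 was the high library of this list, at 0.41 relative to the day 14 mean, and without it the median was -0.15. Day 14 replicate 2, at -0.33, lay within the day 28 range of -0.49 to -0.26, and day 14 replicate 7, at -0.08, lay above it.

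The largest falls were of genes of the mesothelium, the sheet of cells that covers the heart. Msln (chr10:14771946-14781382 in mRatBN7.2) was at 0.905, 19.99 and 14.6 CPM on day 14 and 0.192, 0.141 and 0.314 CPM on day 28 (-5.73 ± 1.16, adjusted p = 0.0263 in edgeR). Muc16 was at 1.31, 31.8 and 31.9 CPM against 0.576, 0 and 0.269 CPM (-6.24 ± 1.38, adjusted p = 0.039 in edgeR). Upk1b had 149 counts on day 14 and 2 on day 28, a ratio of 94.1 (exact interval 25.6 to 784, for counting error only). Day 14 replicate 2 was far below replicates 3 and 7 for all 3 genes and still above each day 28 library. Of the 11 mesothelial markers listed, 6 were tested, 0 were higher and 3 were lower (50%, against 2.63% of all genes). These 3, Msln, Muc16 and Upk1b, had 0 to 12 counts in each day 28 library. They could be tested only through their day 14 counts, and so could only be called lower. The share of 50% is therefore no measure of how the list moved. Krt19, Krt8, Krt18, Upk3b and Bnc1 were too low to test in the fit of all 6 libraries. The summed level of the list was 48.2 to 117 CPM on day 14 and 33.8 to 36.0 CPM on day 28, and Wt1, at 13.7 to 39.0 CPM over both days, did not pass (-0.55 ± 0.28). The calls of Msln and Muc16 were lost without day 14 replicate 3 and without each of the day 28 libraries, and that of Upk1b passed in 13 of 13 alternatives. The list had 7 lower calls without day 14 replicate 2, where 10 members were tested. It had 1 without day 14 replicate 3 (6 tested) or without any 1 of the day 28 libraries (10 tested each).

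Other cell type markers gave the following beside these results. Over all genes, 6.92% were higher and 2.63% were lower. Of 10 cardiomyocyte markers, 10 had a positive value and 4 were higher (40%), Tnni3, Tnnt2, Ckm and Actn2. The summed level of the cardiomyocyte markers was 43020 to 54305 CPM on day 14 and 57787 to 83984 CPM on day 28. Of 12 mural cell markers 6 were higher (50%), Myh11, Rgs5 and Tagln among them, with 1 to 4 called when 1 library was left out and 2 with the length trend removed. Of 10 fibroblast markers 2 were higher (20%), Gsn and Pi16, and 0 without any 1 of the day 14 libraries or without day 28 replicate 3. Of 12 endothelial markers 1 was higher (8.33%), Eng, at 0.75, and 1 was lower (8.33%), Kdr, at -0.49. Each of these shares rests on 1 gene, and Kdr was called in 4 of 14 alternatives and not with the length trend removed. Of 18 myeloid and 9 lymphoid markers 0 passed. The erythroid gene Hba-a2 rose from 73.8, 118 and 131 to 310, 300 and 502 CPM (1.79 ± 0.26), while 9 of the 10 erythroid markers did not pass. Bulk counts do not separate more cells of a type from more RNA per cell, and the part of cell makeup in the results above was not tested.

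Other genes named by the size of their change were mostly of low level. Hamp, the iron hormone hepcidin, rose from 0.201, 0.245 and 0.0531 to 5.47, 2.96 and 2.96 CPM (4.45 ± 0.55, adjusted p = 0.00371 in edgeR). The neuropeptide gene Npy rose from 0.754, 0.147 and 0.372 to 2.40, 4.52 and 3.77 CPM (3.05 ± 0.55), and the mitochondrial leucine tRNA gene Trnl1 from 15.8, 13.3 and 38.9 to 312, 303 and 369 CPM (3.86 ± 0.41). Dstnl1 had the largest fitted rise (5.19 ± 1.23) and rested on day 28 replicates 3 and 4, at 11.7 and 25.2 CPM, since replicate 2 was at 0.624 CPM and day 14 at 0.265 to 0.402 CPM; it passed in 5 of 13 alternatives. Among the falls, the interferon-inducible GTPase gene Gbp6 went from 11.9, 7.94 and 4.99 to 0.288, 0.800 and 1.43 CPM (-3.28 ± 0.53) and passed in 14 of 14 alternatives. The complement gene C4a went from 37.2, 152 and 159 to 13.3, 8.99 and 13.3 CPM (-3.29 ± 0.53) and lost its call without any 1 of the day 28 libraries. Of 1589 long noncoding RNAs tested, 13 were higher (0.818%, against 6.92% of all genes) and 74 were lower (4.66%, against 2.63%), with a median of -0.49.

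The same days were compared in the sorafenib hearts, which share no library with the water hearts but come from the same 2 tables. There 267 of 17238 genes were higher (1.55%) and 116 were lower (0.673%); without day 28 replicate 3, which has only 1036483 counts, 347 were higher and 142 were lower. Of the 1187 genes higher in water that could be tested with sorafenib, 1173 had a positive value there (98.8%) and 203 were called higher, which is 17.04% of the water calls and 76.0% of the sorafenib calls. Of 446 genes lower in water, 422 had a negative value (94.6%) and 33 were called lower, 7.30% of the water calls and 28.4% of the sorafenib calls. No gene (0) was called in opposite directions. Over all genes tested, 49.3% had a positive and 50.7% a negative value in sorafenib hearts. The median change of the water calls was 0.87 in water against 0.61 with sorafenib for the higher genes, and -0.85 against -0.49 for the lower ones.

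By list, immediate early genes had a median of 1.29 with sorafenib (15 of 27 higher), ribosomal protein genes 0.67 (18 of 61), clock activators 0.78 (1 of 5) and clock repressors and output -0.52 (2 of 13 lower). Arntl rose by 2.53 and Egr1 by 3.46 with sorafenib. Myh7 went from 3966 ± 1466 to 7130 ± 1422 CPM with sorafenib (SD, n = 3 each; log2 fold change 0.85, adjusted p = 0.235 in edgeR). Fabp4 had 0.19 and Pgf -0.47, against 1.31 and 2.31 in water. The mesothelial genes Msln and Muc16 were at -0.21 ± 0.89 and 0.39 ± 1.06. Both varied between single sorafenib libraries: on day 14 Msln had 83, 9 and 5 counts and Muc16 had 211, 13 and 20. These values do not settle whether the fall was absent with sorafenib.

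The difference between the day changes of sorafenib and water hearts was tested for each gene and passed for 0 of 18174 in edgeR, while 803 genes were below an unadjusted 0.05 (909 by chance) and DESeq2 called 5. The smallest adjusted p was 0.717. Genes of smallest p were Pgf (-2.81 ± 0.54, unadjusted p = 0.000134 in edgeR), LOC102547461 (-1.09 ± 0.22, unadjusted p = 0.000205) and Fabp4 (-1.14 ± 0.23, unadjusted p = 0.000206), with a smaller or opposite change in sorafenib. In the other direction, Ngdn (1.75 ± 0.34) had a larger change in sorafenib. Erich6 (2.77 ± 0.59) had an opposite one, at -0.92 in water and 1.89 with sorafenib. In simulated data this test found 3.08% of genes changed 2-fold and 73.8% of genes changed 4-fold, so differences of 2-fold were seldom detectable.

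**Figure D5:**
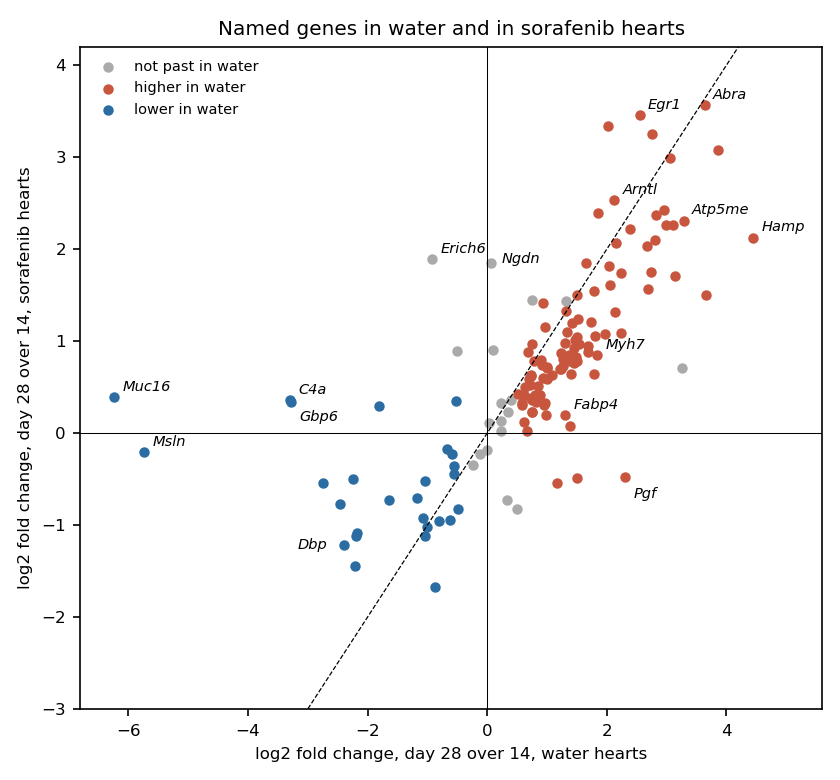
Log2 fold change of day 28 over day 14 for the named genes, in water hearts (horizontal axis) and in sorafenib hearts (vertical axis), with equal change on the dashed line. Of 96 genes called higher in water, 93 are positive in both. Muc16, Msln, C4a and Gbp6 lie near 0 with sorafenib, where their SE were 0.87 to 1.06.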

How the data were processed

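Heart RNA without ribosomal RNA was sequenced in 12 libraries. The deposited values are whole-number read counts per gene, made with featureCounts 2.0.1 in paired mode with no strand setting on a RefSeq annotation of mRatBN7.2, per the file headers. The submitters' processing notes name STAR without a version. The kit keeps strand, per the labels, but counting ignored it, so reads are uncertain where genes overlap, as the exons of 5788 of 34322 genes do. Of the columns for day 14, 2 match no sample and were not used. Per the file headers the 2 days were counted in separate tables. Groups follow the labels.

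For the 6 water libraries, edgeR 4.0.16 was run in R 4.3.3 on the counts (quasi-likelihood, robust dispersion, filterByExpr, TMM, Benjamini-Hochberg adjusted p below 0.05, two-sided, no covariate). Depth was 18186669 to 26403196 counts per water library. The sorafenib libraries were tested in the same way, and the difference of the day changes in a fit of all 12. Each SE comes from the log2 fold change and its F statistic. CPM are TMM-normalized, and RPKM divide them by exonic length.

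Members and gene lists were chosen with earlier results of these data known, and lists carry no test. The naming rule took up to 12 genes per direction by fold (called, mean of 1 CPM or more, days fully apart, no locus number), up to 4 called members of smallest p per list (3 for markers), genes fixed by name, and 3 per direction for the difference. Other members of a list are named to complete it, after their values were seen. The alternatives tried were RLE factors, DESeq2 1.42.0, a stricter filter (1 CPM in 3 libraries) or none, all 4 groups, a dispersion without robust estimate, a replicate block, the length trend removed (lowess span 0.3), and each library left out.

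Motifs were searched in the 250 bases before the start in RefSeq promoters of GRCr8, on both strands. The other elements searched were the D-box (TTATGTAA or TTACGTAA), the heat shock element, CCAAT and the serum response element. Chromosome numbers follow the order of sequences in the files; 27234 symbols (79.3%) matched the GRCr8 gene table, 99.8% of them on the same chromosome. The code was tested on simulated counts of 17210 genes. The water test found 11.4% of 70 genes changed 1.5-fold, 66.2% of 65 changed 2-fold and 96.9% of 65 changed 4-fold. It also made 15 false calls among 17010 unchanged genes, which is not few beside the changed genes it found. No replicate pair agreed within sampling noise (smallest chi-square per gene in water 13.7). Some members of the lists are not reported here by name.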

Additional observations from a re-analysis of the deposited data

How the results depend on the processing

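The count of 1643 genes in water hearts was 2586 with DESeq2 and lay between 1329 (length trend removed) and 1813 (no filter) with RLE factors, other filters, non-robust dispersion, all 4 groups in the fit and the length trend removed. Leaving out 1 library gave 385 to 1703, with the low values without day 14 replicate 2 (573), day 14 replicate 3 (385) and day 28 replicate 3 (651). With the replicate block it was 2171 (1404 higher, 767 lower); same-numbered libraries share only a number, with correlations of their deviations of 0.0132 and -0.0337. The count of 383 genes in sorafenib hearts was 763 with DESeq2 and 97 to 489 with 1 library left out, with 97 without day 14 replicate 6, 145 without day 14 replicate 7, 162 without day 28 replicate 2 and 135 without day 28 replicate 4. The difference gave 5 genes with DESeq2 and 0 to 1 with 1 library left out (1 without water day 14 replicate 2). Of 144 named genes 126 passed, 51 of them in every alternative run and 6 in a minority of them; no named gene (0) changed sign with a call. Of 2010 values of named genes under an alternative, 319 fell out of the threshold, 9 came in and 20 moved. Of 49 list medians, 15 changed sign somewhere. Where a day kept 2 libraries the spread came from all libraries fitted. Genes under 1 CPM rest on few counts, and 1.5-fold changes were mostly below detection. The causes of these shifts were not tested.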

Other observations

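Some stress and signalling genes outside the groups above also differed in water hearts. Of 16 hypoxia genes, 3 were higher on day 28 (18.75%, against 6.92% of all genes) and 1 was lower (6.25%, against 2.63%). Ddit4, an inhibitor of mTOR signalling, rose from 40.4, 35.7 and 40.4 to 78.9, 106 and 121 CPM (log2 fold change 1.39 ± 0.16, adjusted p = 0.003 in edgeR), and had a value of 0.08 in sorafenib hearts, a difference that did not pass a test. Epas1 and Ndrg1 were higher (0.63 and 1.00), and Hif1a, the oxygen-regulated factor, was lower (-0.59 ± 0.12), at 54.7, 52.7 and 45.9 CPM against 31.3, 34.5 and 36.4 CPM. With 1 library left out, 1 to 4 of these genes were called higher, with 1 without day 14 replicate 3 or day 28 replicate 3, and Hif1a was called in 9 of 14 alternatives. Of 22 genes of the endoplasmic reticulum stress list, 2 were higher (9.09%, near the 6.92% of all genes), with a list median of 0.07. They were Atf4 (0.68 ± 0.14) and Ddit3 (0.69 ± 0.17), with 0 called without day 14 replicate 2, day 14 replicate 3 or day 28 replicate 3. Of 14 lipogenesis and 16 basement membrane genes, 0 passed.

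Genes for the RNAs of the mitochondrial genome, a group chosen after its values were seen, were unequal. Of 21 tested, 12 were higher on day 28 and 0 were lower, with a median log2 fold change of 1.51. Over all genes tested, 6.92% were higher and 2.63% were lower. Trns1 was at 429 ± 72.3 CPM on day 14 and 2064 ± 844 CPM on day 28 (SD, n = 3 each), and Trnm at 34.4 ± 3.78 and 143 ± 25.1 CPM. Trnc was at 530 ± 90.0 and 531 ± 212 CPM, with a log2 fold change of 0.00 ± 0.29, and Trnl2 at 0.04 ± 0.17. These genes are 60 to 75 bases long apart from the ribosomal RNAs. The count tables hold 24 genes of the mitochondrial genome, all of tRNAs or ribosomal RNAs, and none that encodes a protein. Counts on such short genes do not separate the tRNAs from longer transcripts that cover them.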
